A study of Mus musculus with 4 samples.

Results

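Immediate-early response genes are the first genes a cell transcribes after a stimulus such as a growth factor, mechanical strain, wounding or stress. Here 10 of them were followed in single alveolar cells of mouse lung. They are the AP-1 genes Fos, Fosb, Jun and Junb, the related stress gene Atf3, the zinc finger gene Egr1, the nuclear receptor gene Nr4a1, the early-response genes Ier2 and Ier3 and the antiproliferative gene Btg2. The genes were chosen by name from knowledge of this class, and all 10 were found among the 17117 genes of the count table and passed the filter on low levels. All are well known for being induced while a tissue is cut, warmed and digested, so their level in dissociated cells can reflect handling as well as the animal.

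The cells came from a study of lung regrowth after pneumonectomy (PNX), the surgical removal of part of a lung, in mice that lack Cdc42 in alveolar type II (AT2) cells. AT2 cells secrete surfactant and renew the alveolar epithelium, and Cdc42, a small GTPase, controls the actin cytoskeleton and cell polarity. GFP+ cells were sorted from 4 groups of mice and each group was 1 library made with the 10x Genomics single-cell 3′ protocol. Sham control and PNX control mice were Sftpc-CreER; Cdc42flox/+; Rosa26-mTmG, and sham null and PNX null mice were Sftpc-CreER; Cdc42flox/-; Rosa26-mTmG. All 4 groups received 4 doses of tamoxifen and are labelled postnatal day 80, and both PNX groups were taken on day 21 after surgery. Controls therefore carry Cre, tamoxifen treatment and 1 floxed Cdc42 allele too. Cre is driven by Sftpc, so Cre deletion and labelling begin in cells that express Sftpc at the time of tamoxifen. Their progeny inherit both. By these genotypes, every cell of a null mouse, leukocytes included, also carries 1 deleted Cdc42 allele without Cre, which control cells do not. The sources used here do not say whether day 80 was the day of surgery or of harvest, nor how many mice went into a library. All lungs went through the same protease digestion at room temperature.

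Alveolar cells were those with at least 2% of their UMIs (unique molecular identifiers, each standing for 1 captured mRNA molecule) from Sftpc or with at least 1 Cldn4 UMI, and with no UMI of Ptprc (the leukocyte marker CD45), Pecam1 (endothelium) or Col1a2 (fibroblasts). Of 10077 cells, 9827 passed the filters and 7933 were alveolar: 1635 in sham control, 1932 in PNX control, 2564 in sham null and 1802 in PNX null. The cells let in by Cldn4 alone numbered 426. Another 942 cells held Ptprc UMIs and were kept apart, as cells of another kind that went through the same sort in the same tube. The alveolar cells held between 8099735 and 20712932 UMIs per library. The median was 4823, 4873 and 5202 UMIs per cell in sham control, PNX control and sham null but 10792.5 in PNX null, so PNX null stood apart in depth. Its cells also had the lowest median mitochondrial share, 2.97% against 4.82% to 5.07%. Between libraries, 54 barcode sequences were shared, by 108 cells. The AT2 markers summed to between 128555 and 213309 CPM (the usual depth-scaled unit, a gene's UMIs as a scaled share of all UMIs) in the alveolar cells, all 10 of them detected in every library. This list includes Sftpc, which the gate uses, so a high sum is partly set by the gate. Cdc42 itself was at 184 CPM in sham control, 225 in PNX control, 265 in sham null and 408 in PNX null. It was thus higher, not lower, in the libraries labelled null. A 3′ tag can lie outside the deleted part, so this neither checks nor contradicts the labels.

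Most promoters of this class are set up before a stimulus arrives and are switched on through factors already present in the cell. Serum response factor binds the CArG box, CREB and ATF proteins bind the cAMP response element (CRE), and the resulting AP-1 and EGR proteins act on later genes through AP-1 and EGR sites. The transcripts are short-lived, so a level reads out recent activity. RefSeq promoters (GRCm38.p6) were found for 8 of the 10 genes, all but Egr1 and Ier2. A search covered both strands from 250 bases before to 50 bases after each start. The letters searched were TGACGTCA for the CRE, TGACG for its core, which lies inside every full CRE, TGANTCA for the AP-1 site and GCGGGGGCG for the EGR site, with the CArG box taken by its usual definition. The 250 bases before the start are shown for 4 genes, Fos as the prototype of the class, Nr4a1 and Atf3 for the widest differences described below, and Btg2 as the gene with a full CRE. They lie at chr12:85473640-85473889 on the plus strand for Fos, chr1:191183334-191183583 on the minus strand for Atf3, chr15:101266596-101266845 on the plus strand for Nr4a1 and chr1:134079156-134079405 on the minus strand for Btg2. Capitals mark the motif letters found, on either strand, and each sequence runs 5′ to 3′ towards the gene.
Fos: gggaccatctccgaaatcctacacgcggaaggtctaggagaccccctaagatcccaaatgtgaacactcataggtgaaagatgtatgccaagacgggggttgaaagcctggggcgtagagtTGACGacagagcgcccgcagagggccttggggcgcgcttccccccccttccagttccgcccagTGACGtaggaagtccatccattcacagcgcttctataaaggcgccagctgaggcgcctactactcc
Atf3: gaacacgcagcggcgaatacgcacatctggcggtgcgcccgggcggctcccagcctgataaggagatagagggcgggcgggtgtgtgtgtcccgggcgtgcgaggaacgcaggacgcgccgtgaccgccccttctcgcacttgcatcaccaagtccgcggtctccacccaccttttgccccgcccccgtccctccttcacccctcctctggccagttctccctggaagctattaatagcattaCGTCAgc
Nr4a1: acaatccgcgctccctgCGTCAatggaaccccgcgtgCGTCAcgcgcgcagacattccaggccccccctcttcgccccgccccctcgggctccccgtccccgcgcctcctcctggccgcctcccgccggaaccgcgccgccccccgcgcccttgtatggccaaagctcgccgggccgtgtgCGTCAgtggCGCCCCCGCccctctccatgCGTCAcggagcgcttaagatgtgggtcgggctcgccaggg
Btg2: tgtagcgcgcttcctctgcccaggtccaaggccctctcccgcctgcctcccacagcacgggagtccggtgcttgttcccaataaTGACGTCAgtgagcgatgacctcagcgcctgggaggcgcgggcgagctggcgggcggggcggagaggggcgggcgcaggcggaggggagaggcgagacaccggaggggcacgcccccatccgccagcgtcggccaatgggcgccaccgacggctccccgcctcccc

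The TGACG core was in 6 of the 8 promoters, against 20.8% of the 32851 RefSeq promoters of this length. Nr4a1 had 4 separate cores. They begin 233, 213, 69 and 40 bases before the start, each on the strand opposite the gene (written CGTCA above). Fos had cores 129 and 66 bases before the start and Atf3 had 1 at 7 bases before it. Fosb and Junb, not shown, also had 1 each, and Jun and Ier3 had none. Btg2 alone of the 8 had the full CRE, at 166 to 159 bases before the start, which 1.79% of all promoters hold. The EGR site was in Nr4a1, 60 to 52 bases before the start, and in Fosb, against 2.91% of all promoters. AP-1 sites and CArG boxes were in 0 of the 8 windows, against 7.81% and 1.63% of all promoters. These are matches of letters in a short window and show no binding.

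Each library was summed over its alveolar cells, and levels are given as CPM with exact 95% Poisson intervals. These intervals, and those of the ratios, hold counting error alone. Each group being 1 library, no difference below has a replicate check and no p-value is given. Levels of different genes are set side by side without correction for length, since a 3′ protocol counts about 1 tag per transcript. Together the 10 genes made up 1865 CPM in sham control (1836 to 1895), 955 in PNX control (936 to 975), 1117 in sham null (1099 to 1134) and 1680 in PNX null (1662 to 1698). The order was therefore sham control, PNX null, sham null and PNX control, with no 2 neighbouring intervals touching. PNX libraries were lower than sham among controls and higher than sham among nulls.

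**Figure D1:**
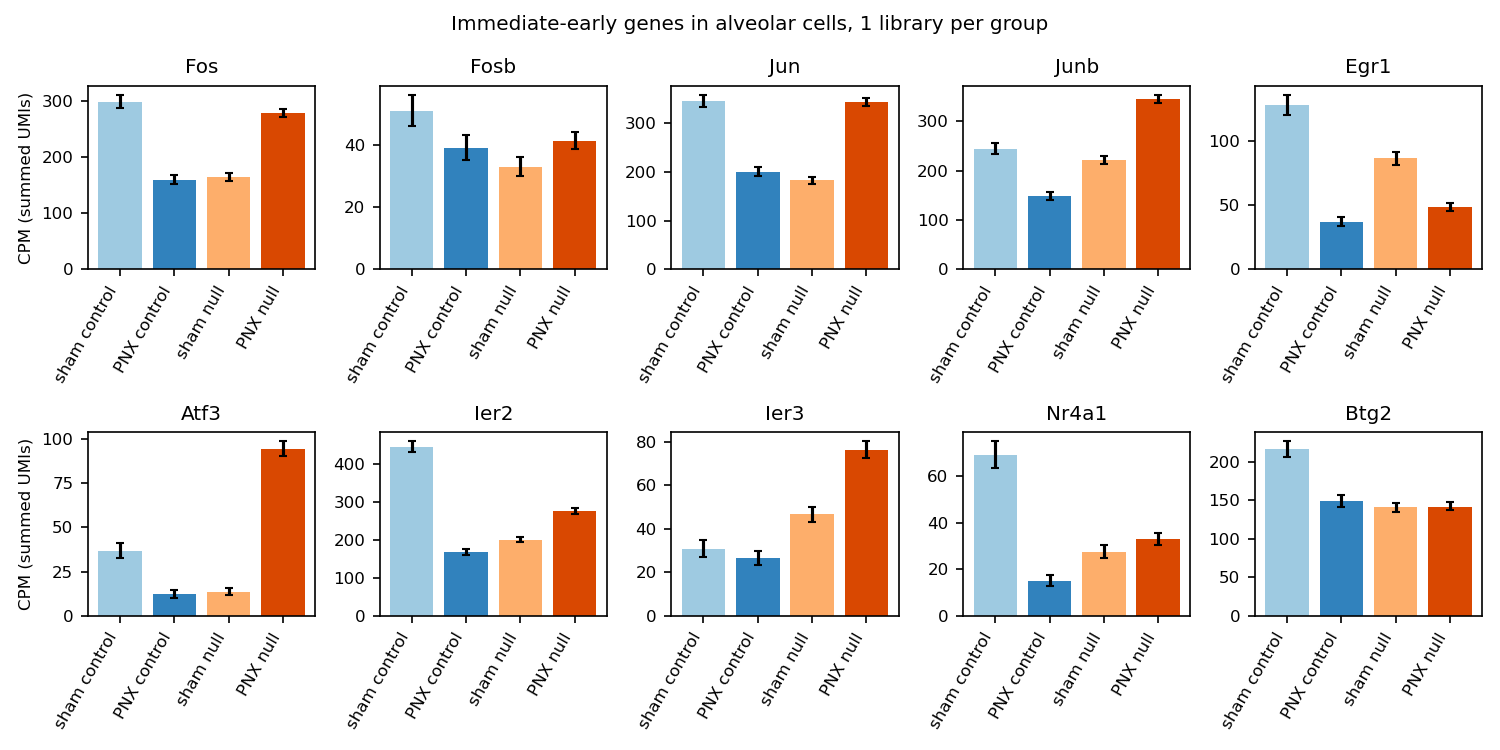
Level of each of the 10 genes in alveolar cells, in CPM of the UMIs summed over each library, with 1 bar per library and exact 95% Poisson intervals. Sham control is the highest library for Fos, Fosb, Egr1, Ier2, Nr4a1 and Btg2, PNX null for Junb, Atf3 and Ier3, and both are level for Jun.

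Fos encodes the founding partner of the AP-1 dimer. It was at 299 CPM in sham control (287 to 311), 159 in PNX control, 164 in sham null and 278 in PNX null (270 to 285). Sham control and PNX null formed a high pair, and the intervals of PNX control (151 to 167) and sham null (158 to 171) overlapped. Jun, which pairs with Fos, had the same high pair, with 346 CPM in sham control, 201 in PNX control, 183 in sham null and 345 in PNX null. For Jun the intervals of sham control (333 to 359) and PNX null (337 to 353) overlapped as well.

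Junb, an AP-1 member that often restrains Jun, was at 245 CPM in sham control, 148 in PNX control, 221 in sham null and 346 in PNX null. PNX null was the highest library and PNX control the lowest, and no intervals overlapped. Fosb, a partner whose protein is known for persisting after repeated stimulation, was low and varied least of the AP-1 genes, at 51.1, 39.2, 33.0 and 41.4 CPM in the same order. PNX control (35.4 to 43.2) and PNX null (38.7 to 44.2) could not be told apart for Fosb.

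Atf3, a stress-induced member of the CREB and ATF family, had the widest spread of the 10. It stood at 36.7 CPM in sham control (32.6 to 41.1), 12.3 in PNX control, 13.5 in sham null and 94.5 in PNX null (90.3 to 98.8). PNX control (10.2 to 14.7) and sham null (11.7 to 15.6) overlapped at the bottom, and PNX null stood alone at the top. No single cell held more than 2.91% of the Atf3 UMIs of PNX null.

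Egr1, a zinc finger factor induced by growth factors and strain, was at 128 CPM in sham control, 36.9 in PNX control, 86.1 in sham null and 48.3 in PNX null. It was the only one of the 10 in which both sham libraries stood above both PNX libraries. In PNX control 1 cell held 6.83% of its UMIs, the largest such share among the 10 genes in alveolar cells. Nr4a1, an orphan nuclear receptor induced within minutes of a signal, was at 69.0 CPM in sham control, 14.9 in PNX control, 27.4 in sham null and 32.9 in PNX null. Sham control stood far above the other 3 libraries for Nr4a1.

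Ier2, a small early-response protein, was the most abundant of the 10 in sham control, at 444 CPM, and stood at 168 in PNX control, 200.5 in sham null and 276 in PNX null. Btg2, which slows cell division, was at 217 CPM in sham control and at 149, 141 and 142 in PNX control, sham null and PNX null. The last 3 of these overlapped, so Btg2 separated only sham control from the rest. Ier3, a survival gene of the NF-kB response, ran differently from the others, at 30.9 CPM in sham control, 26.5 in PNX control, 46.6 in sham null and 76.5 in PNX null. Both null libraries were above both controls, and the controls' intervals overlapped (27.2 to 34.9 and 23.4 to 29.9).

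For comparisons, the log2 ratio of 2 libraries was taken relative to the median of all 7051 genes with a mean of at least 10 CPM. A gene was called higher or lower when it passed 1.5-fold on that scale and its interval did not reach the median. That median lay above 0 in each alveolar comparison, at 0.14 for PNX control over sham control, 0.22 for PNX null over sham null, 0.17 for sham null over sham control and 0.24 for PNX null over PNX control. The comparisons share libraries and are not independent of each other: sham control enters the first and the third, and PNX null the second and the last.

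In control mice, 8 of the 10 genes were lower in PNX than in sham alveolar cells, against 3.01% of all genes tested, and 0 were higher, against 3.42% of all genes (6.01% without the centring, when 0 were higher as well). The median of the 10 was -0.98 on the log2 scale relative to all genes. Nr4a1 differed most, 4.62-fold lower (3.85 to 5.58), followed by Egr1, 3.46-fold lower (3.07 to 3.90). Atf3 was 2.98-fold lower (2.40 to 3.71) and Ier2 was 2.64-fold lower (2.49 to 2.80). The AP-1 genes Fos, Jun and Junb and the cell-cycle brake Btg2 were lower by smaller factors, 1.87-fold, 1.72-fold, 1.65-fold and 1.45-fold in CPM. Btg2 passed 1.5-fold only relative to all genes. Fosb (1.31-fold lower) and Ier3 (1.16-fold lower, 0.974 to 1.39) were not called.

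In null mice the pattern was mixed. Of the 10 genes, 2 were higher in PNX than in sham, against 16.0% of all genes tested, and 1 was lower, against 20.3% of all genes. A share of 2 in 10 is near the background. Without centring on all genes 5 of the 10 were higher, against 27.6% of all genes tested, and 5 were also higher with a total that leaves out surfactant genes. The higher ones were Atf3, at 6.98 times the level in sham null (6.02 to 8.13), and Jun, at 1.89 times (1.80 to 1.97). Egr1 was lower, by 1.78-fold (1.64 to 1.94). Fos, at 1.69 times sham null, Ier3, at 1.64 times, and Junb, at 1.56 times, were above 1.5-fold in CPM but not relative to all genes. Btg2, at 1.01 times (0.952 to 1.07), and Nr4a1, at 1.20 times, were close to sham null.

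The difference between these PNX effects was wide for most genes. It was taken without centring on all genes, whose log2 medians were 0.22 in nulls and 0.14 in controls. The share of all genes with such a difference was not computed. On the log2 scale, the PNX over sham ratio in nulls minus that in controls was positive for all 10 genes, and every interval lay above 0. It was 4.37 for Atf3 (4.00 to 4.74), 2.47 for Nr4a1, 1.86 for Ier2, 1.70 for Jun, 1.66 for Fos and 1.36 for Junb. The smaller values were 0.95 for Egr1, 0.93 for Ier3, 0.71 for Fosb and 0.55 for Btg2 (0.42 to 0.68). Egr1 was lower after PNX in both genotypes, with log2 ratios of -0.83 in nulls and -1.79 in controls.

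**Figure D2:**
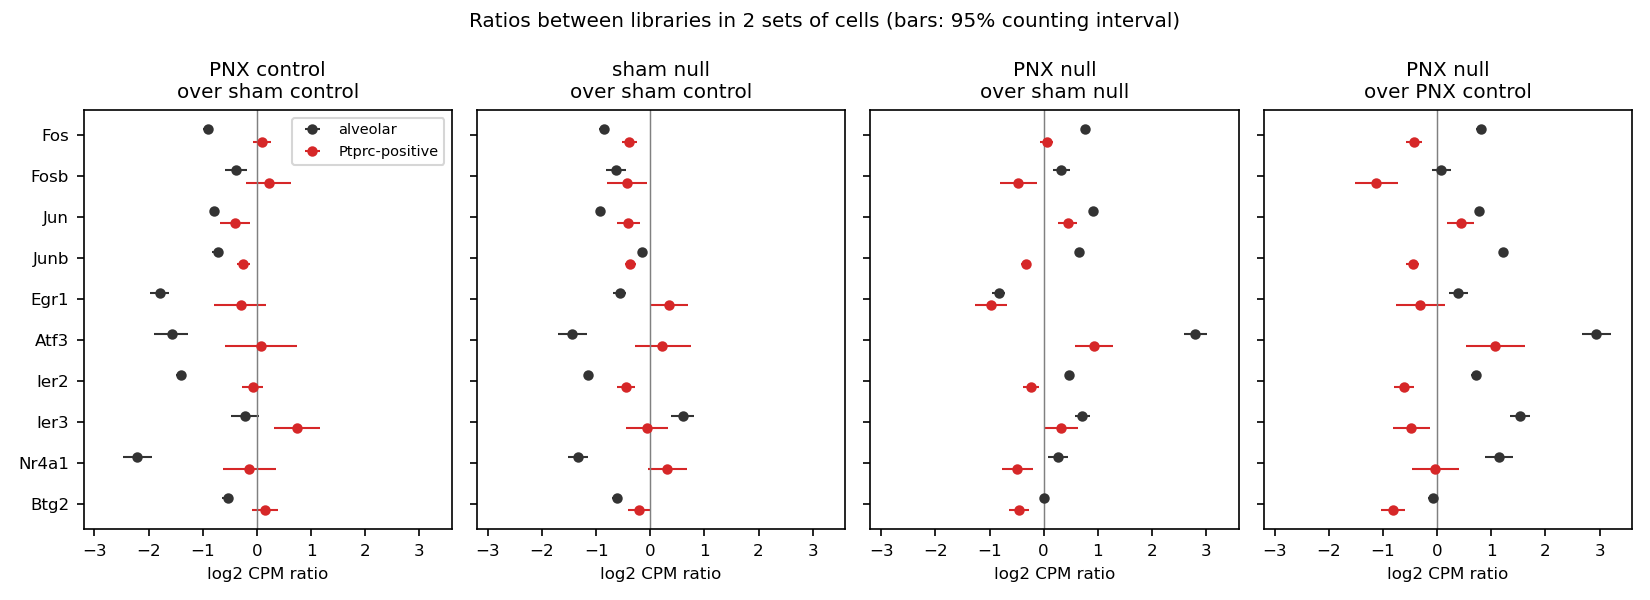
Log2 ratio of CPM, before centring on all genes, for each of the 10 genes and each comparison, in alveolar cells and in Ptprc-positive cells, with 95% intervals from counting error. In PNX control over sham control the alveolar points lie between -2.20 and -0.22 while most Ptprc-positive points lie near 0.

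Among sham mice, 8 of the 10 genes were lower in null than in control cells, against 6.68% of all genes tested, and 0 were higher, against 7.89% of all genes. Without centring 1, Ier3, was higher, against 14.5% of all genes. The median was -0.92. Atf3 was 2.71-fold lower (2.25 to 3.26), Nr4a1 2.52-fold lower (2.21 to 2.87) and Ier2 2.22-fold lower (2.11 to 2.33). Jun and Fos were lower by 1.89-fold and 1.82-fold, Fosb and Btg2 by 1.55-fold and 1.54-fold, and Egr1 by 1.48-fold, which passed only relative to all genes. Junb (1.10-fold lower) and Ier3, at 1.51 times sham control, were not called. Since this and the PNX control comparison divide by the same sham control library, a high level in that single library enters both.

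Among PNX mice, 4 of the 10 genes were higher in null than in control cells, against 20.8% of all genes tested, and 0 were lower, against 21.7% of all genes. The 4 were Atf3, at 7.67 times PNX control (6.39 to 9.29), Ier3 at 2.88 times, Junb at 2.33 times and Nr4a1 at 2.20 times. Fos (1.74 times), Jun (1.72 times) and Ier2 (1.64 times) fell short of the rule relative to all genes. Without centring 7 of the 10 were higher, against 32.3% of all genes. When cells with Cldn4 UMIs were left out, Junb and Ier3 were no longer called, at 0.44 and 0.30 on the log2 scale relative to all genes, and Fos was, at 0.65.

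Ptprc-positive cells, a gate for leukocytes, shared the animals, the digestion and the sort with the alveolar cells of their library. They numbered 228 in sham control, 119 in PNX control, 311 in sham null and 284 in PNX null. Surfactant transcripts were present in them as well: the AT2 markers summed to between 41651 and 68951 CPM, so some held alveolar RNA, from doublets or free RNA that were not separated. The lineages also differed in share, with macrophage and neutrophil markers at 5908, 11851, 8265 and 1008 CPM and lymphocyte markers at 1392, 1175, 1219 and 857 CPM in sham control, PNX control, sham null and PNX null. Values within 2 lineage classes are given beside the results below that they change.

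Taken as a sum, the 10 genes were more abundant in Ptprc-positive than in alveolar cells of each library. They summed to 4145 CPM in sham control (4017 to 4277), 3943 in PNX control (3787 to 4104), 3342 in sham null (3252 to 3435) and 3003 in PNX null (2932 to 3076). The 2 control libraries had overlapping intervals and lay above both nulls. The order of the alveolar cells, with PNX control at the bottom, was not seen here. Junb made the largest contribution, at 1535, 1293, 1189 and 943 CPM, above its alveolar level in each library. Fos was at 807, 863, 615 and 639 CPM, and its interval in PNX control (791 to 940) overlapped that in sham control (751 to 866). Nr4a1 was at 104, 94.8, 129 and 92.3 CPM, with overlapping intervals in sham control (84.7 to 127), PNX control (72.0 to 123) and PNX null (80.1 to 106).

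**Figure D3:**
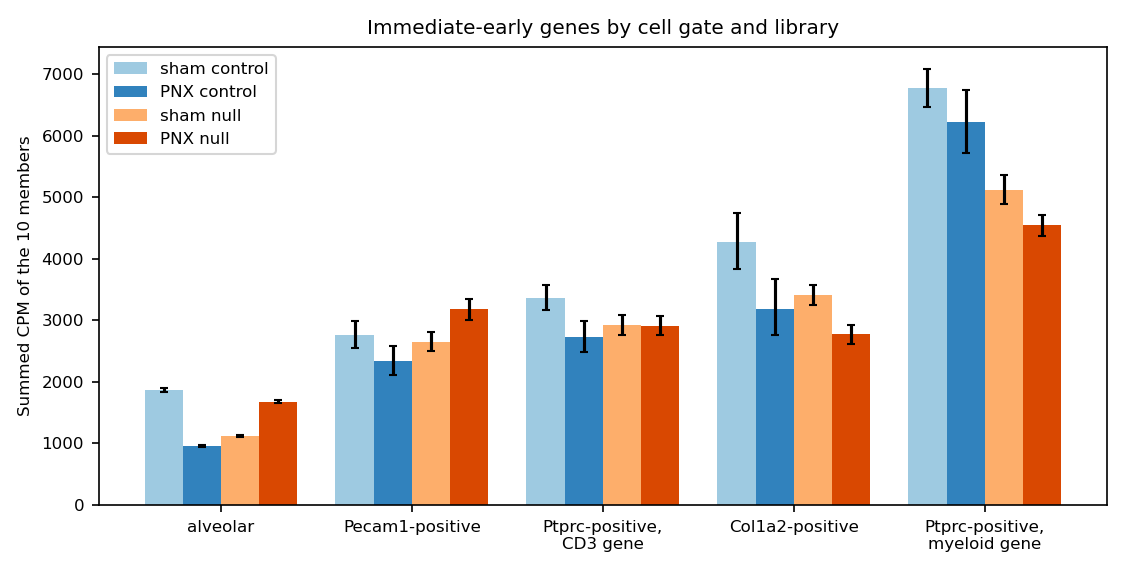
Summed level of the 10 genes, in CPM, in each library and each kind of cell, with exact 95% Poisson intervals. Alveolar cells hold the lowest sum in every library, from 955 CPM in PNX control to 1865 CPM in sham control, and Ptprc-positive cells with a myeloid gene the highest, from 4540 to 6764 CPM.

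In control mice, 1 of the 10 genes was higher in PNX than in sham Ptprc-positive cells, against 4.96% of the 7768 genes tested, and 0 were lower, against 5.39% of all genes. The higher gene was Ier3, at 1.67 times sham control, but 1 cell held 41.8% of its UMIs in PNX control. Without the highest cell of each gene, Ier3 was at 62.1 CPM in sham control and 78.6 in PNX control, at 1.26 times (0.831 to 1.91), and was not called. The alveolar log2 ratio minus the Ptprc-positive one was taken without centring on all genes, here and below. The share of all genes with such a difference was not computed. The medians of all genes were 0.14 in alveolar and -0.02 in Ptprc-positive cells. The difference was negative for all 10 genes. Without the highest Ptprc-positive cell of each gene its interval lay below 0 for 8 of them. The exceptions were Ier3, at -0.56 (-1.18 to 0.06), and Fosb, at -0.39 (-0.88 to 0.09). With all cells the difference was -2.07 for Nr4a1 (-2.61 to -1.54), -1.66 for Atf3, -1.49 for Egr1, -1.33 for Ier2, between -1.19 and -0.82 for Fos, and -0.39 for Jun (-0.68 to -0.10). For those 8 genes, PNX control was thus further below sham control in alveolar cells than over all Ptprc-positive cells of the same 2 libraries. Within lineage classes, defined below, this was not clear for each of them. In cells with a CD3 gene Btg2 had a log2 ratio of -0.65, against -0.54 in alveolar cells. As a ratio this was 0.633 (0.419 to 0.937), an interval that holds the alveolar 0.688. Atf3 was at 0 CPM in PNX control and 12.5 in sham control of this class, with a ratio interval up to 2.82. The class in PNX control includes 1 cell rich in macrophage and neutrophil markers, described below. Single genes were not recomputed without that cell. In cells with a myeloid gene Jun was at -0.70, against -0.78 in alveolar cells. The ratios of Fos, Junb, Egr1, Ier2 and Nr4a1 lay above the alveolar ones in both classes. For Junb, Ier2 and Nr4a1 the intervals were also apart from the alveolar ones in both. The Egr1 interval overlapped the alveolar one in both classes, and that of Fos did in cells with a CD3 gene.

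In null mice, 1 gene was higher in PNX than in sham Ptprc-positive cells, against 11.7% of all genes, and 4 were lower, against 14.2% of all genes. Over all Ptprc-positive cells, Atf3 was the higher one, at 1.89 times sham null (1.49 to 2.42), from 61.3 to 116 CPM. The lower genes were Egr1 (1.95-fold), Nr4a1 (1.40-fold), Fosb (1.39-fold) and Btg2 (1.37-fold), but only 1 gene was lower among cells with 3000 to 10000 UMIs. Within lineage classes of these cells, defined below, Atf3 was not called in this comparison, at 1.51 times sham null in cells with a CD3 gene (0.536 to 4.61) and 1.32 times in cells with a myeloid gene (0.980 to 1.80). In the myeloid class 1 cell held 39.4% of the Atf3 UMIs of sham null. The alveolar log2 ratio of Atf3 exceeded the Ptprc-positive one by 1.88 (1.48 to 2.28). For Egr1 the 2 kinds of cell could not be told apart, with a difference of 0.13 (-0.18 to 0.44).

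Between genotypes, 0 of the 10 genes were higher in null than in sham control Ptprc-positive cells, against 6.13% of all genes, and 0 were lower, against 5.66% of all genes. In the alveolar cells of the same 2 libraries, 8 had been lower. Within the myeloid class, however, 3 were lower, against 4.97% of all genes, and 1 was higher, against 5.83% of all genes. The lower ones were Fos (1.48-fold), Junb (1.58-fold) and Ier3 (1.86-fold), and the higher one was Nr4a1, at 2.00 times sham control (1.44 to 2.84). In the class with a CD3 gene 0 were higher, against 4.91% of all genes, and 0 were lower, against 4.05%. The alveolar ratio lay below the Ptprc-positive one by intervals clear of 0 for Fos, Jun, Egr1, Atf3, Ier2, Nr4a1 and Btg2, and above it for Junb and Ier3. Without the highest Ptprc-positive cell of each gene the Ier3 interval reached 0. For Fosb the difference was -0.20 (-0.60 to 0.20). Among PNX mice, 1 gene was higher in null than in control, against 14.1% of all genes, and 6 were lower, against 14.6% of all genes. Over all Ptprc-positive cells, the higher one was Atf3, at 2.09 times PNX control (1.46 to 3.08). The lower ones were Fosb, Btg2, Ier2, Ier3, Junb and Fos, by factors between 1.35 and 2.18. Only 2 genes were lower among cells with 3000 to 10000 UMIs, and 3 without the highest cell of each gene. Within lineage classes, defined below, Atf3 was not called, at 1.55 times PNX control in cells with a myeloid gene (0.894 to 2.92). In cells with a CD3 gene Atf3 was at 23.8 CPM in PNX null and 0 in PNX control. Fosb, Junb, Fos and Ier3 were called in neither class, and Ier2 and Btg2 were lower in the myeloid class alone. Ier3 was instead above PNX control in both, by intervals that reached equal levels. Its levels were 80.1 against 40.8 CPM in the CD3 class and 213 against 119 CPM in the myeloid class. Over all Ptprc-positive cells, alveolar minus Ptprc-positive log2 ratios were positive for all 10 genes in PNX null over PNX control, again without a share over all genes. They ran from 0.35 for Jun (0.09 to 0.61) to 2.01 for Ier3 (1.63 to 2.40). Without the highest Ptprc-positive cell of each gene, the intervals of Jun and Egr1 reached 0 and Ier3 was at 1.08 (0.58 to 1.58). Within lineage classes the difference was not positive for each gene. In cells with a CD3 gene the log2 ratio of Jun was 1.19, above the alveolar 0.78.

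The lineages of the Ptprc-positive cells differed in the level of the 10 genes. Ptprc-positive cells with a CD3 gene and no B-cell gene held 3362 CPM of the 10 genes in sham control, 2727 in PNX control, 2919 in sham null and 2911 in PNX null. In PNX control the markers of this class went against its name: macrophage and neutrophil markers summed to 31408 CPM, above lymphocyte markers at 3210 CPM, and 1 of its 40 cells held 99.9% of them. Without that cell those markers were at 33.4 CPM and the 10 genes at 3100 CPM (2824 to 3395). In sham control and sham null as well, macrophage and neutrophil markers, at 3393 and 3809 CPM, exceeded lymphocyte markers, at 3131 and 2564 CPM, so the class is not free of myeloid RNA. Those with a myeloid gene and no lymphocyte gene held 6764, 6213, 5119 and 4540 CPM, above the CD3 class in each library. Atf3 showed the split by lineage most clearly. In PNX null it was at 23.8 CPM in the CD3 class (11.9 to 42.6) and at 235 in the myeloid class (197 to 278). Within the myeloid class, PNX control over sham control had Nr4a1 higher, 1 of 10 against 1.93% of all genes, and Jun lower, 1 of 10 against 2.57%. PNX null over sham null had Ier3 higher, against 9.59% of all genes, and 4 lower, Fosb, Egr1, Nr4a1 and Btg2, against 10.4%. PNX null over PNX control had 0 higher, against 7.12%, and 3 lower, Ier2, Nr4a1 and Btg2, against 7.95%. In the CD3 class, PNX control over sham control had Ier3 higher, against 3.06% of all genes, and Btg2 lower, against 3.57%. PNX null over sham null had Ier3 higher, against 7.71%, and Junb lower, against 9.34%, and PNX null over PNX control had Jun higher, against 8.75%, and 0 lower, against 6.75%. These classes held between 30 and 110 cells per library, and Ier3 in the CD3 class rested on 7 UMIs in PNX control and 2 in sham control. Cells with Pecam1 UMIs held 2761, 2337, 2650 and 3176 CPM of the 10 genes, and those with Col1a2 UMIs 4267, 3189, 3413 and 2770 CPM. These last 2 classes held at most 108 cells per library, and single cells carried up to 100% of a gene's UMIs in them.

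Shares of cells were read after each alveolar cell had been thinned at random to 2000 UMIs, which left out 82 cells of sham control, 68 of PNX control, 88 of sham null and 0 of PNX null. Before thinning, the deeper PNX null cells held a UMI more often, with Atf3 in 37.7% of them against 13.1% after thinning. After thinning, Ier2 was seen in 45.5% of sham control cells (43.0% to 48.0%, exact binomial), 23.9% of PNX control, 29.2% of sham null and 38.8% of PNX null cells. Nr4a1 was seen in 12.2%, 2.58%, 5.45% and 5.72%, and Egr1 in 16.5%, 5.04%, 14.0% and 7.55%. Atf3 was seen in 6.57%, 2.58%, 2.58% and 13.1%. The shares thus ranked the libraries as the summed levels did for these 4 genes. Ptprc-positive cells thinned in the same way showed Nr4a1 in 12.4% to 17.3% of cells in the 4 libraries, and no cell type here is known to lack these genes. How much free RNA adds to the shares was not tested.

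A typical alveolar cell held few of the 10 genes at this depth. The mean number seen per cell was 2.37 in sham control, 1.47 in PNX control, 1.76 in sham null and 2.23 in PNX null. At least 4 of the 10 were seen in 24.1% of sham control cells, 7.03% of PNX control, 9.94% of sham null and 19.5% of PNX null cells. None of the 10 was seen in 12.4%, 22.9%, 17.1% and 11.9%. Sham control and PNX null thus had more cells with many of the genes and fewer with none, while their whole distributions overlapped those of the other libraries. The variance of the summed member UMIs per cell was 3.52 times the mean in sham control and 4.09 times in PNX null (3.29 times without its cell highest in Atf3), against 1.87 and 1.76 times in PNX control and sham null. In each library the 10% of cells with most member UMIs held between 29.5% and 32.8% of them.

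**Figure D4:**
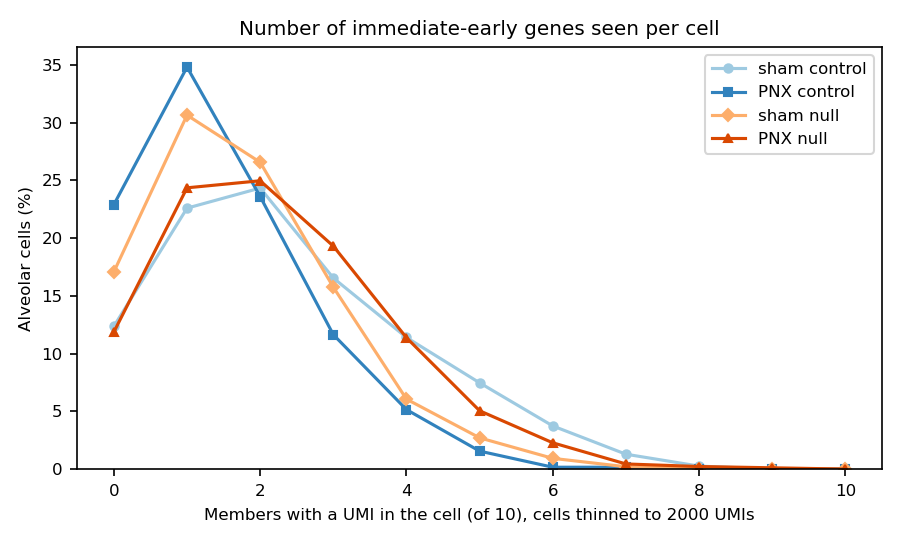
Share of alveolar cells, in percent, by how many of the 10 genes had a UMI after thinning to 2000 UMIs per cell, with 1 line per library. The lines of PNX control and sham null peak at 1 gene and those of sham control and PNX null at 2.

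Depth moved with the PNX null library, so the sum of the 10 genes was also read within bands of cell depth. Among cells with 3000 to 5000 UMIs it was 1729 CPM in sham control, 910 in PNX control, 1064 in sham null and 2062 in PNX null. Among cells with 5000 to 10000 UMIs it was 1929, 951, 1105 and 1657 CPM. In both bands PNX control was the lowest, sham null next and the other 2 libraries above them, and the order of the lower 2 was the same below 3000 UMIs (970 and 1363 CPM). At 10000 UMIs and above, where 1008 of the PNX null cells lay but only 22 of sham control and 39 of PNX control, the sums were 1671 CPM in sham control (1521 to 1832), 1308 in PNX control (1206 to 1417), 1173 in sham null (1122 to 1226) and 1662 in PNX null (1642 to 1682). There PNX control was not the lowest and its gap to sham control was narrower.

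A small set of cells with very high Atf3 stood out in PNX null. After thinning, 24 of its 1802 alveolar cells (1.33%, 0.855% to 1.98%) had 3 or more Atf3 UMIs, and the highest had 26. Sham control had 1 such cell of 1553. PNX control had 0 of 1864 and sham null 0 of 2476, which allow shares of up to 0.198% and 0.149% (exact binomial). The 24 cells held 31.8% of the thinned Atf3 UMIs of PNX null. Their means per cell were also higher for the other members, with 2.50 Jun UMIs (1.91 to 3.22) against 0.676 in the rest, 1.33 Btg2 UMIs against 0.282, and 0.625 Egr1 UMIs against 0.0934. For Fosb, at 0.208 (0.0676 to 0.486) on 5 UMIs, the interval reached the 0.0748 of the rest. Of the 24, 1 cell held 26 Atf3 and 21 Btg2 UMIs. Only the means of Jun, Btg2 and Egr1 were recomputed without it. Without it the mean of Jun lay between 1.73 and 3.01 by its interval, and the means were 0.478 for Btg2 (0.239 to 0.856) and 0.435 for Egr1 (0.208 to 0.800), so the interval of Btg2 then reached the level in the rest. Cldn4 UMIs were present in 83.3% of the 24 cells (62.6% to 95.3%) and in 53.7% of the others. Their median depth was 8540 UMIs against 10820, and their median mitochondrial share 1.94% against 2.98%. These cells were picked for high Atf3, so their Atf3 level is no finding.

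Cldn4, a tight-junction gene, marks alveolar cells in a transitional state. In PNX null 974 alveolar cells held Cldn4 UMIs and 828 held none, against 0 Cldn4-positive cells in sham control, 3 in PNX control and 69 in sham null. Summed levels of transitional markers ran the same way, at 691, 928, 3052 and 12742 CPM. That list includes Cldn4 itself, so the likeness is partly set in advance. Within PNX null, 3 of the 10 genes were higher in Cldn4-positive than in Cldn4-zero cells, against 7.17% of the 7334 genes tested, and 0 were lower, against 6.87% of all genes. They were Ier3, at 104 against 37.1 CPM, 2.80 times (2.47 to 3.18), Junb, at 428 against 228 CPM, 1.88 times (1.78 to 1.98), and Atf3, at 114 against 65.6 CPM, 1.74 times (1.58 to 1.93). Fos (275 and 282 CPM), Ier2 (272 and 281 CPM) and Btg2 (139 and 147 CPM) had nearly the same level in both. In the Cldn4-zero cells 1 cell held 10.3% of the Atf3 UMIs. The 2 sets also differed in airway markers, which summed to 8071 CPM in the Cldn4-positive and 2170 CPM in the Cldn4-zero cells. The contrast was not repeated without cells rich in airway genes.

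The Cldn4-zero cells allow the libraries to be set side by side without cells that held Cldn4 UMIs. Transitional markers still differed among them, at 691, 920, 2617 and 5432 CPM in sham control, PNX control, sham null and PNX null. The transitional state was therefore not removed in full. In the Cldn4-zero cells Atf3 was at 36.7, 12.3, 12.7 and 65.6 CPM in the same order. Jun was at 346, 201, 180.5 and 328 CPM and Fos at 299, 159, 164 and 282 CPM. Ier3, by contrast, was at 30.9, 26.6, 46.7 and 37.1 CPM, so PNX null stood above sham null only with the Cldn4-positive cells included. Against PNX control, Ier3 was still at 1.39 times without them (1.18 to 1.65). Junb behaved alike, at 228 CPM in PNX null against 220 in sham null, but at 1.53 times PNX control (1.43 to 1.64).

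**Figure D5:**
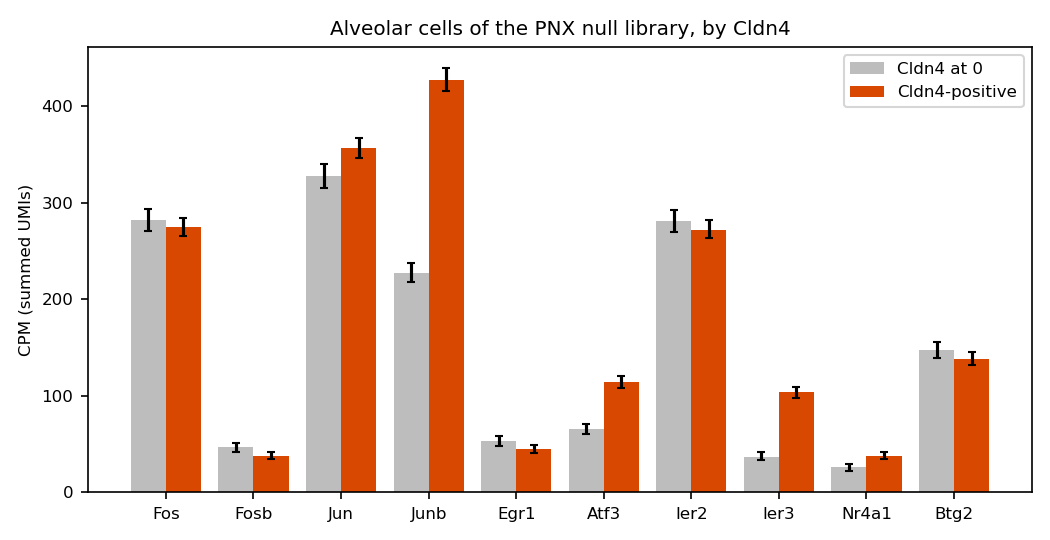
Level of each of the 10 genes in the 974 Cldn4-positive and the 828 Cldn4-zero alveolar cells of PNX null, in CPM with exact 95% Poisson intervals. Junb, Atf3 and Ier3 are higher in the Cldn4-positive cells, while the bars of Fos, Ier2 and Btg2 are nearly level in the 2 sets.

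Other genes of the same response were read from lists by role. Of all genes tested, 3.42% were higher and 3.01% lower in PNX control over sham control. The shares were 16.0% and 20.3% in PNX null over sham null, and 7.89% and 6.68% in sham null over sham control. In PNX null over PNX control they were 20.8% and 21.7%. These shares are the background of the counts below. None of the 7 measured AP-1 relatives and partners was called in either PNX over sham comparison. Maff was higher in null than in control in sham cells (62.9 against 22.1 CPM) and in PNX cells (51.1 against 24.4 CPM), with Mafg higher in sham and Fosl2 in PNX. Jund, the constitutive Jun relative, stayed between 927 and 1184 CPM in the 4 libraries. Of the 9 measured EGR, NR4A and KLF factors, 1 was higher and 1 lower in PNX control over sham control. In PNX null over sham null 2 were higher, Klf2 and Klf4, and 2 lower, Klf9 and Srf. Sham null over sham control had 4 higher, Klf2, Klf6, Klf10 and Bhlhe40, and 1 lower, Klf4. PNX null over PNX control had 2 higher, Klf2 and Klf6, and 3 lower, Klf9, Srf and Hes1. Klf2, a flow- and stress-responsive factor, was at 22.2, 13.9, 82.2 and 219 CPM in sham control, PNX control, sham null and PNX null, and was lower in PNX control and higher in each of the other 3 comparisons. Klf10 was higher in PNX control than in sham control.

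Feedback genes shut the response down, and 3 of 13 measured were lower in PNX control than in sham control, against 3.01% of all genes, with 0 higher. They were Nfkbiz (7.06 against 17.9 CPM), Zfp36 (169 against 285 CPM), whose product degrades early mRNAs, and Dusp1 (112 against 159 CPM), a phosphatase of MAP kinases. In PNX null over sham null, 4 of the 13 were higher, Dusp6, Nfkbia, Dusp1 and Socs3, against 16.0% of all genes, and 2 were lower, Zfp36 (91.9 against 164 CPM) and Spry2, against 20.3%. Zfp36 was thus lower in PNX in both genotypes. Sham null over sham control had 1 higher, against 7.89% of all genes, and 4 lower, against 6.68%. PNX null over PNX control had 6 higher, against 20.8%, and 2 lower, against 21.7%. Both counts of 2 lower are below the background, and the same shares of all genes are the background of the lists that follow.

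Of 18 measured growth and stress genes of the early response, 0 were higher and 2 lower in PNX control than in sham control, Cxcl2 and Per1. In PNX null over sham null, 10 were higher and 2 lower. The largest were Cyr61, a matricellular gene driven by mechanical signals, at 200.2 against 5.62 CPM, Plaur, the urokinase receptor, at 58.3 against 3.40 CPM, Ier5 at 118 against 29.9 CPM and Cxcl1 at 22.7 against 6.25 CPM. The lower ones were Per1, a clock gene that is also induced early, at 10.3 against 57.5 CPM, and Errfi1. The list's median was 0.67 there and -0.01 in PNX control over sham control. In sham null over sham control 3 were higher and 3 lower, and in PNX null over PNX control 8 were higher and 2 lower.

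Of the 13 measured kinases and factors that act above these genes, 0 were called in PNX control over sham control and 0 in PNX null over sham null. In sham null over sham control 2 were higher, Rps6ka1 and Map2k1. Their mRNA level says nothing of their activity.

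Heat-shock genes, another set known to respond to handling, went the other way in PNX control. Of 14 measured, 8 were higher than in sham control and 0 lower, including Hsph1 (29.9 against 3.09 CPM), Hspa1b (31.5 against 3.95 CPM), Hspa1a (16.5 against 3.09 CPM) and Dnaja1 (284 against 107 CPM), with a list median of 0.84. In PNX null over sham null 5 were higher, led by Hspa1a (40.1 against 3.12 CPM), and 1 lower. In sham null over sham control 5 were higher and 1 lower, and in PNX null over PNX control 2 were higher and 3 lower. Within the control pair, heat-shock genes were thus higher in the library in which the 10 genes were lower. The part of handling in either set was not tested.

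Markers of other cells in the alveolar gate moved with some of these values. Airway markers summed to 5321 CPM in sham control, 1297 in PNX control, 4925 in sham null and 5665 in PNX null, with all 5 detected. With cells of at least 1% of UMIs from Scgb1a1 and Scgb3a2 left out, 8 genes were again called lower in PNX control than in sham control. Lymphocyte markers summed to between 31.1 and 44.6 CPM, with Ms4a1 at 0 in sham control and Cd79a at 0 in PNX control. Macrophage and neutrophil markers summed to 108, 54.3, 161 and 127 CPM, with Adgre1 at 0 in PNX control, and endothelial markers to between 20.9 and 27.3 CPM. Fibroblast markers were at 1.23, 1.01, 7.70 and 11.4 CPM, with Lum and Dcn at 0 in both controls. With every cell that held a UMI of these lymphocyte, macrophage, neutrophil, endothelial or fibroblast markers left out, 8 genes were called lower as well.

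Across alveolar cells thinned to 2000 UMIs, the genes whose UMIs were most like the sum of the 10 were ranked among 7051 by the mean Pearson r over the 4 libraries. Among the 10 highest were Jund (0.20), Dusp1 (0.20), the histone gene H3f3b (0.18), Zfp36 (0.17) and Klf6 (0.16). Lower among them were Hbegf (0.14), Malat1 (0.14), Pnrc1 (0.13) and Errfi1 (0.11). In PNX null r was 0.34 for Hbegf, 0.32 for Pnrc1 and 0.23 for Errfi1, against at most 0.113 in the other 3 libraries. Malat1 went the other way, at 0.08 in PNX null and 0.21 in sham null. The ranking was not repeated without the PNX null cell highest in Atf3. Such values are weak in sparse counts, cells of a library share its preparation, and no test was made. Between members, Egr1 and Ier2 had the highest mean r, 0.20. Atf3 and Btg2 had 0.49 in PNX null, but 0.07 without the 1 cell highest in both genes, against at most 0.11 in the other 3 libraries.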

How the data were processed

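The deposited table holds raw UMI counts per gene and cell, not normalized, made by the authors. The submitters' processing notes list mm10, Seurat 2.3.4 and Cell Ranger 2.1.0, with no role given. Which annotation release served is not stated. Per the labels' descriptions, a cell's library was read from its barcode ending.

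Cells were kept if they had 500 or more genes and no more than 20% mitochondrial UMIs (Python 3.11.15, numpy 2.4.6, scipy 1.17.1, pandas 2.3.3). Doublets were not removed, and Ptprc, Pecam1 or Col1a2 UMIs took a cell out of the alveolar gate. UMIs were summed per library and gate and given as CPM, with exact 95% Poisson intervals for levels and exact 95% binomial intervals for ratios. A count of 0.5 was added for log2 ratios. Calls needed a mean of 10 CPM over the 4 libraries and 1.5-fold relative to the median of all genes. The comparison step was tested on simulated counts. TMM factors for an alternative scaling came from edgeR 4.0.16 in R 4.3.3. Cells were thinned without replacement with seed 1.

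The genes, lists, gates and comparisons were chosen with earlier results of these data known. Besides the 10 genes, the text names up to 4 called genes per direction, list and comparison, those of largest size, and the 10 genes most like the members. Other genes named, and the cells high in Atf3, were chosen after their values were seen. Gene symbols are those of the table. A gene in the list of upstream kinases, with that list's count in PNX null over PNX control, and a gene among the 10 most like the members are not reported here.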

Additional observations from a re-analysis of the deposited data

Results flagged for a closer look

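Jun and Atf3 were called in opposite directions after PNX in the 2 genotypes. Relative to all genes, the log2 ratio of PNX over sham for Jun was -0.92 in control and 0.69 in null alveolar cells, and for Atf3 it was -1.71 in control and 2.58 in null. Both differences lie outside counting error, but each arm is 1 library, so the difference between genotypes was not tested against animals.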

How the results depend on the processing

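Over the 10 genes and 58 settings per gene, 580 ratios were recomputed. Of these, 493 kept their call or, without a call, stayed within their counting interval. A call was lost in 15 and gained in 23, 49 without a call moved beyond that interval and 0 calls changed direction. With a fold of 2, chosen after seeing the data, the genes lower in PNX control than in sham control were 5 in place of 8, and those lower in sham null than in sham control 5 in place of 8. The genes higher in PNX null than in sham null were then 1 in place of 2, and those higher in PNX null than in PNX control 2 in place of 4. Without centring on all genes (also chosen afterwards), these last 2 counts were 5 and 7, and 1 gene was higher in sham null than in sham control. With a total that leaves out surfactant genes they were 5 and 7 too. Among Ptprc-positive cells with 3000 to 10000 UMIs, 1 gene was lower in PNX null than in sham null in place of 4, 2 were lower in PNX null than in PNX control in place of 6, and 1 was higher in sham null than in sham control. Without the highest cell of each gene, chosen after seeing the data, 0 Ptprc-positive genes were higher in PNX control in place of 1, and 3 were lower in PNX null than in PNX control in place of 6. With at least 3 Cldn4 UMIs, 1 gene was lower in Cldn4-positive cells in place of 0. The values in the text without the cell highest in Atf3 and Btg2, without the highest Ptprc-positive cells and without the CD3-class cell rich in macrophage and neutrophil markers were likewise chosen after seeing the data. The causes of these shifts were not tested.

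No paired analysis was possible because each group is 1 library. For the same reason leaving out a replicate was not run. Depth limits the smaller Ptprc-positive classes most, where some genes rest on fewer than 10 UMIs.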
